A study of Mus musculus with 31 samples.

Results

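Gonads of XY and XX mouse embryos were compared, both of a genotype that deletes Sox9 and Ctnnb1 in their somatic cells. The comparison set 3 XY DKO arrays against 4 XX DKO arrays out of 31 arrays in the series. The samples were chosen by their titles, genes on the X and Y chromosomes were left out, and 11314 autosomal genes were tested. Both groups were double mutants (DKO). The comparison therefore asks what still differed between XY and XX gonads whose genotype deletes both genes in the cells that normally decide the fate of the gonad.

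The DKO embryos, XY and XX, were Ctnnb1f/f and Sox9f/f and carried Sf1-cre+/Tg, a Cre transgene under Sf1 (Nr5a1) control that deletes floxed alleles. Sox9KO embryos carried Ctnnb1+/f; Sox9f/f, Ctnnb1KO embryos Ctnnb1f/f; Sox9+/f, and controls Ctnnb1+/f; Sox9+/f, each with Sf1-cre+/Tg, so that controls also carried Cre and 1 floxed allele of each gene. Each of these 6 other groups, XY and XX, had 4 arrays. Embryos came from Ctnnb1f/f; Sox9f/f mothers, were taken at embryonic day 14.5, and gave 1 array per pair of gonads without the mesonephros. Germ cells do not express the Sf1 driver and kept both genes, and the cells that express it include steroid-producing cells as well as supporting cells.

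In XY gonads the transcription factor SOX9 drives the supporting cells to become Sertoli cells, which signal through Desert hedgehog and other factors to fetal Leydig cells, the makers of androgen. In XX gonads WNT signalling through beta-catenin, the product of Ctnnb1, maintains pregranulosa cells and represses testis genes, and germ cells enter meiosis under retinoic acid. Each pathway restrains the other, and mutants that lack both allow the sexes to be compared without either.

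Signals are the authors' linear array intensities, and every difference given below is XY minus XX on the scale of log2(signal + 16), with its standard error from limma. A gene was called at a limma adjusted p under 0.05. Sox9 signals of the probe set used were 8.6 to 34.9 in XY DKO and 6.3 to 50.9 in XX DKO, against 839.7 to 1024.9 in XY control and 11.7 to 174.3 in XX control. The strongest Ctnnb1 probe set averaged 12486.2 ± 1238.8 in XY DKO and 13147.2 ± 354.2 in XX DKO (SD, n = 3 and 4). In XY and XX control it averaged 12797.7 ± 470.1 and 12531.9 ± 1160.9 (SD, n = 4). The sources used here do not place it inside or outside the deleted exons, so it checks no label, and the loss of Ctnnb1 is taken from the genotype. The weakest of 3 Ctnnb1 probe sets read 1246.8 to 1377.9 in XY DKO and 1604.4 to 1828.9 in XX DKO. Xist, transcribed from the inactive X chromosome, ran from 46.3 to 97.1 in XY DKO and from 8050.8 to 9431.7 in XX DKO, and Y-linked Eif2s3y from 3522.0 to 3709.8 and from 17.0 to 30.3, as their labels say. One XX Ctnnb1KO array, replicate 4, had an Xist signal of 51.1, while Eif2s3y was at most 29.6 in that group, and leaving it out changed the calls between XY and XX Ctnnb1KO to 3345, against 3649 with it, and those between XY and XX DKO to 567, against 571. Median array signals ran from 120.6, in XY DKO replicate 3, to 168.8, and correlations of log2 signals between arrays of 1 group were 0.9667 to 0.9834 in XY DKO and 0.9695 to 0.9842 in XX DKO.

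XY DKO gonads had more expression than XX DKO gonads of all 7 measured Leydig and steroid synthesis genes, of 12 listed. They also had more of part of the cholesterol, interstitial and Sertoli cell genes, and less of some ovarian and meiosis genes. In all, limma called 571 of 11314 autosomal genes (5.05%), 389 of them higher (3.44%) and 182 lower (1.61%) in XY DKO. At least a 2-fold difference was reached by 93 genes (0.822%), 70 higher (0.619%) and 23 lower (0.203%). Arrays of both groups did not overlap for 547 of the 571 called genes (4.83% of those tested), while 1893 of all genes tested (16.7%) had no overlap. The count rests on the arrays available: it was 345 without XY DKO replicate 4, 359 without XX DKO replicate 2, 326 without XX DKO replicate 3, and 158 when only the 7 DKO arrays were fitted.

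The steroid synthesis genes gave the largest differences. Cyp11a1, encoding the enzyme that cuts the side chain of cholesterol to start steroid synthesis, had signals of 2986.1, 2525.8 and 2483.3 in XY DKO, against 157.4, 272.4, 176.4 and 166.9 in XX DKO. All XY DKO arrays lay far above all XX DKO arrays, and the difference was 3.71 ± 0.33, or 13.04-fold (limma adjusted p = 4.49e-09). The gene's 2 other probe sets were not above the array median, and averaging all 3 gave 1.23, still called. Cyp17a1, which encodes the enzyme that leads to androgens, had signals of 6680.4, 5084.0 and 4011.1 in XY DKO and of 636.2, 875.0, 401.8 and 549.3 in XX DKO. The groups were again apart, by 3.08 ± 0.27, or 8.48-fold (limma adjusted p = 4.35e-09). Hsd3b1, which encodes the dehydrogenase and isomerase of steroid synthesis and has near-identical family members that a probe set may also read, had signals of 4410.2, 3793.1 and 3753.9 in XY DKO, against 550.2, 565.5, 552.8 and 518.2 in XX DKO. Within each group its arrays lay close together, and the difference of 2.83 ± 0.19, or 7.1-fold, had the smallest adjusted p of the steroid genes (limma adjusted p = 4.5e-12).

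All 7 measured members (of 12 listed) of the fetal Leydig and steroid synthesis list rose, with a median of 1.12. Over all autosomal genes the median was 0.002, and 3.44% were called higher. The other listed members, Hsd3b6, Insl3, Lhcgr, Fdxr and Por, were not measured. Star, the carrier of cholesterol into the mitochondrion, had signals of 1596.8, 1526.9 and 1850.4 in XY DKO, against 756.0, 851.5, 660.8 and 757.9 in XX DKO, a difference of 1.12 ± 0.13 (limma adjusted p = 1.07e-06). Scarb1, the receptor that takes up lipoprotein cholesterol, had signals of 1739.2, 1525.8 and 1639.2 in XY DKO and of 851.4, 917.6, 809.9 and 919.8 in XX DKO, a difference of 0.89 ± 0.09 (limma adjusted p = 1.97e-07). For both genes every XY DKO array was above every XX DKO array, and 2 other Scarb1 probe sets gave 0.91 and 0.94. Fdx1, the electron carrier of mitochondrial steroid enzymes, rose by 0.71 ± 0.11, and Nr5a1, the transcription factor that drives these genes and the Cre transgene, by 0.46 ± 0.11 (limma adjusted p = 0.000159 and 0.0108). The other Nr5a1 probe set gave 0.08, and the call was lost with the mean of both and without XY DKO replicate 4 or XX DKO replicate 2. The mean log2 level of the 7 genes was 11.56, 11.37 and 11.41 in XY DKO and 9.63, 9.81, 9.48 and 9.56 in XX DKO. In such whole-gonad samples, fewer cells of a type and less RNA per cell cannot be told apart.

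Set beside the other genotypes, Cyp11a1 and Cyp17a1 of XY DKO lay above XY Sox9KO and below XY control. Cyp11a1 averaged 2665.1 ± 278.8 in XY DKO and 193.3 ± 53.3 in XX DKO, 15.7 ± 15.6 in XY Sox9KO and 13.8 ± 9.51 in XX Sox9KO, and 7901.5 ± 276.1 in XY control and 31.2 ± 18.6 in XX control (SD, n = 3 in XY DKO and 4 elsewhere). Its XY minus XX difference in DKO was smaller than in control by -3.76 log2 units and larger than in Sox9KO by 3.68 (limma interaction adjusted p = 3.19e-07 and 1.57e-05). Cyp17a1 behaved alike, with interactions of -3.61 against control and 2.74 against Sox9KO (limma adjusted p = 2.13e-08 and 5.24e-05). For Hsd3b1 the interaction with control was not called, with a difference of 2.83 in DKO and 2.90 in control (interaction -0.07, limma adjusted p = 0.886). Its mean signals were 3985.7 ± 368.1 in XY DKO and 546.7 ± 20.1 in XX DKO, against 9824.4 ± 451.5 in XY control and 1321.3 ± 252.5 in XX control.

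**Figure D1:**
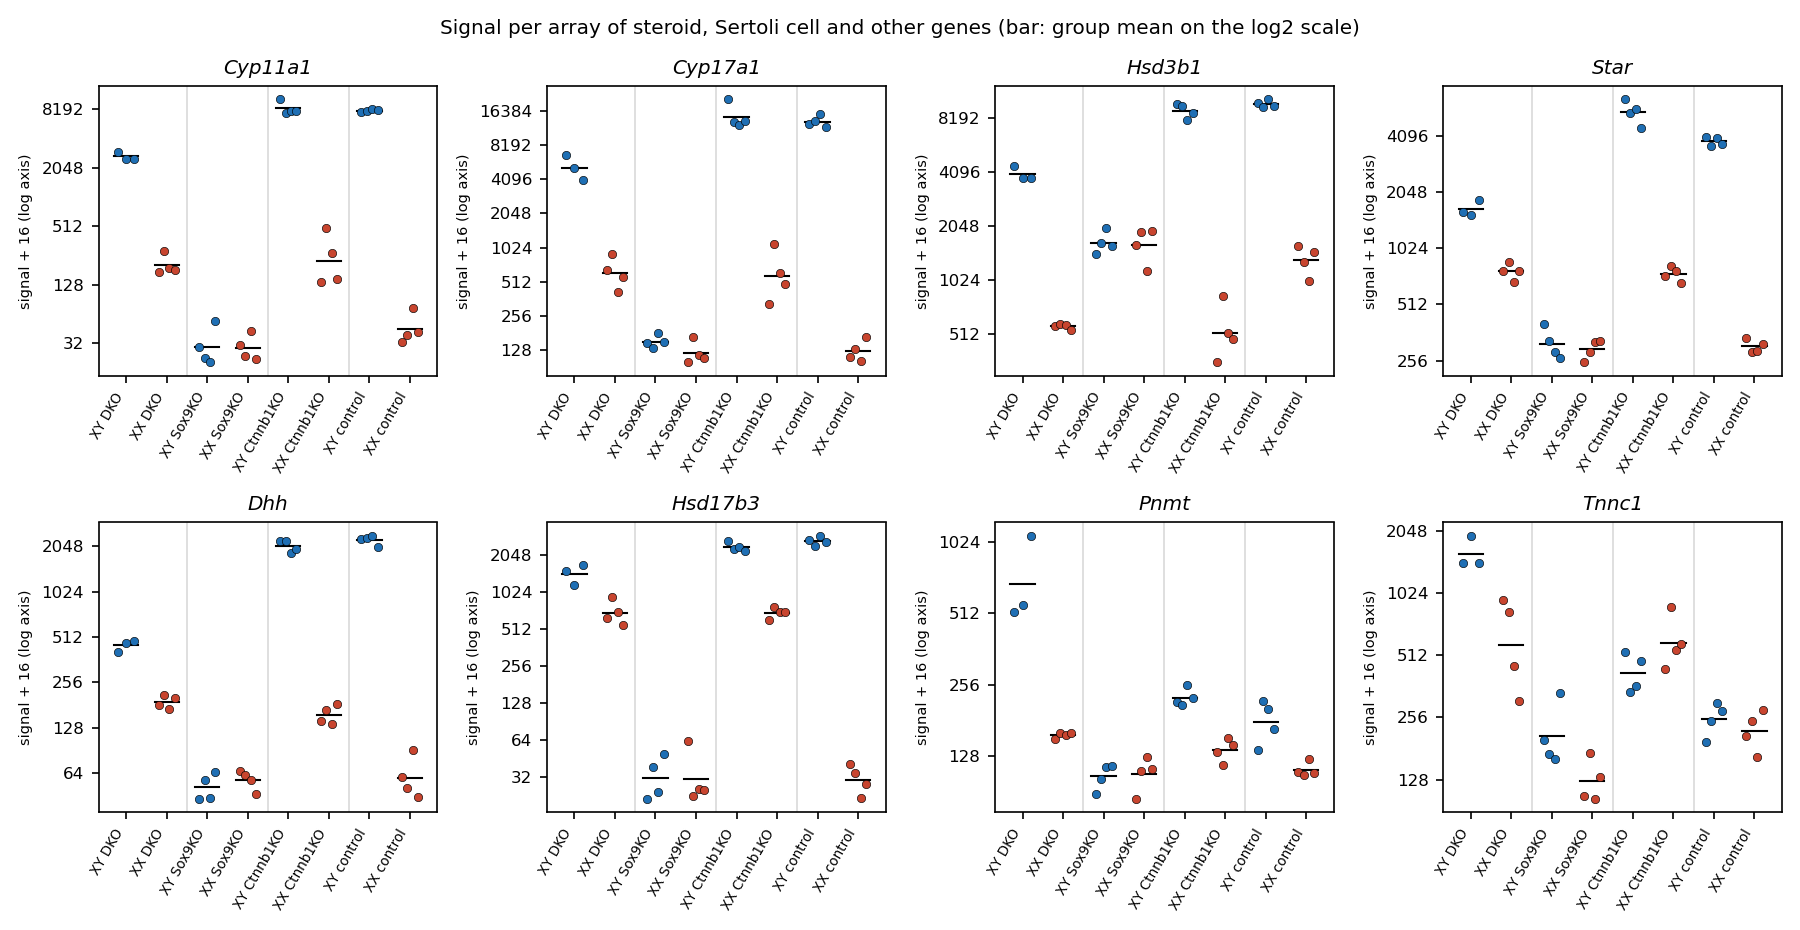
Signal + 16 on a log axis for 8 genes in each array, XY in blue and XX in red, by genotype, with bars at group means on the log2 scale. XY DKO arrays lie above XX DKO arrays for each gene, Cyp11a1 and Cyp17a1 of XY DKO lie below XY control, and Pnmt and Tnnc1 of XY DKO lie above XY control.

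Part of the genes of cholesterol supply rose too. Of 14 measured genes of cholesterol synthesis and uptake, 6 rose and 0 fell in XY DKO, with a median of 0.40. In XY control all 14 were called higher, with a median of 1.03. Over all autosomal genes, 3.44% were called higher in XY DKO and 18.0% in XY control. With only the 7 DKO arrays fitted, 3 were called. Msmo1, a sterol oxidase, had signals of 858.9, 861.1 and 1018.6 in XY DKO, against 404.2, 503.6, 470.6 and 493.5 in XX DKO, and rose by 0.94 ± 0.14 (limma adjusted p = 5.09e-05). Cyp51, the lanosterol demethylase, rose by 0.55 ± 0.10, and Fdft1, which commits precursors to sterols, by 0.56 ± 0.11, though averaging all Fdft1 probe sets gave 0.05 and ended the call. Lss, which closes the sterol rings, rose by 0.43 ± 0.09, Sqle, an epoxidase acting just before it, by 0.43 ± 0.10, and Dhcr7, the last step, by 0.48 ± 0.12, a call lost without XX DKO replicate 2. Hmgcs1, at the head of the pathway, differed by 0.05 (limma adjusted p = 0.823), and Stard4 and Mvk each by 0.10 (limma adjusted p = 0.715 and 0.725).

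Of 4 measured genes known from the adrenal cortex, 2 were called higher, beside 3.44% of all autosomal genes. Mc2r, the receptor for the pituitary hormone ACTH, had signals of 116.4, 115.9 and 189.2 in XY DKO, against 59.7, 48.3, 48.2 and 59.8 in XX DKO, and rose by 1.13 ± 0.21 (limma adjusted p = 0.00087). Cyp11b1, an enzyme of corticosteroid synthesis, had signals of 224.3, 104.6 and 178.3 in XY DKO and of 75.8, 88.4, 39.1 and 42.1 in XX DKO, and rose by 1.26 ± 0.32 (limma adjusted p = 0.0168). Neither gene's arrays overlapped, but in XX DKO these signals are all below the array medians of 141.8 to 160.3. Mc2r was below the median in XY DKO replicates 2 and 3 as well, and Cyp11b1 in XY DKO replicate 3. The Cyp11b1 call was lost under 5 of 18 alternatives, among them the loss of XY DKO replicate 2, XY DKO replicate 4 or XX DKO replicate 3, which left Mc2r alone. Cyp21a1 and Mrap differed by 0.24 and -0.20 (limma adjusted p = 0.774 and 0.674). In XY control Mc2r averaged 206.0 ± 35.9 and Cyp11b1 434.8 ± 93.3, against 60.5 ± 11.7 and 10.7 ± 3.39 in XX control (SD, n = 4).

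Pnmt, the enzyme that turns noradrenaline into adrenaline, was one of the 12 largest rises and had a higher mean than in the control testis. Its signals were 500.9, 540.5 and 1069.4 in XY DKO and 135.1, 143.7, 141.4 and 144.5 in XX DKO. XY DKO replicate 4 was the highest by far, and the groups did not overlap. The difference was 2.11 ± 0.20 (limma adjusted p = 9.65e-09), a second Pnmt probe set gave 2.10, and the call held under all 18 alternatives run. Signals averaged 703.6 ± 317.4 in XY DKO and 164.4 ± 37.2 in XY control, and the XY minus XX difference was larger in DKO than in control by 1.45 (limma interaction adjusted p = 0.000212).

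Most of the other large rises were genes with high levels in the control testis. Gsta2, an alpha-class glutathione transferase, had signals of 798.1, 888.0 and 856.9 in XY DKO, against 140.0, 267.4, 113.8 and 146.7 in XX DKO, a difference of 2.30 ± 0.21 (limma adjusted p = 9.65e-09). Hao2, a peroxisomal oxidase of hydroxy acids, had signals of 930.5, 685.1 and 800.0 in XY DKO and of 164.3, 102.4, 163.8 and 189.3 in XX DKO, a difference of 2.28 ± 0.19 (limma adjusted p = 1.06e-09). Both separated the groups on every array and were also higher in XY control, by 5.07 and 3.88. Oxtr, the oxytocin receptor, rose by 2.24 ± 0.27, the chemokine gene Ccl17 by 2.18 ± 0.34 and Npy, encoding neuropeptide Y, by 1.97 ± 0.24. Sostdc1, a secreted inhibitor of BMP and WNT ligands, rose by 1.86 ± 0.28, and Ephx1, an epoxide hydrolase, by 1.81 ± 0.22. The interaction with control was called for all of these 7 genes, each with the smaller difference in DKO. Hesx1, a homeobox repressor best known in the pituitary, had signals of 693.7, 1031.6 and 378.0 in XY DKO and of 184.2, 139.9, 117.4 and 162.2 in XX DKO. It spread widely among XY DKO arrays, rose by 2.01 ± 0.45, and was not called without XY DKO replicate 3 or with a pseudocount of 1.

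The hedgehog ligand gene Dhh and the targets Gli1 and Ptch1 were higher in XY DKO, while other targets did not pass the test. Dhh, encoding Desert hedgehog, had signals of 390.8, 448.6 and 468.1 in XY DKO, against 166.5, 195.4, 155.0 and 185.3 in XX DKO, a difference of 1.24 ± 0.18 (limma adjusted p = 5.09e-05). Gli1, a transcription factor induced by hedgehog, had signals of 257.4, 236.0 and 294.7 in XY DKO and of 87.8, 116.0, 37.2 and 63.4 in XX DKO, a difference of 1.67 ± 0.31 (limma adjusted p = 0.00111). Neither gene's arrays overlapped between the groups. Ptch1, the hedgehog receptor and itself a target, rose by 0.42 ± 0.09, a call lost without XY DKO replicate 2 and with only the 7 DKO arrays fitted. The Notch target Heyl rose by 0.49 ± 0.13 and the growth factor receptor gene Pdgfra by 0.44 ± 0.12, but both calls were lost without XY DKO replicate 4 or XX DKO replicate 3, and that of Pdgfra without any of 4 other DKO arrays. Of 14 interstitial and hedgehog target genes measured these 4, Gli1, Ptch1, Heyl and Pdgfra, were called, with a list median of 0.28, and 1 was called with only the 7 DKO arrays fitted. Over all autosomal genes, 3.44% were called higher in the main fit. Hhip, another hedgehog target, had signals of 52.3, 49.9 and 59.7 in XY DKO and of 40.1, 11.0, 25.0 and 33.7 in XX DKO (0.74 ± 0.24, limma adjusted p = 0.0671), against 588.9 ± 30.4 in XY control (SD, n = 4). Of 7 myoid and smooth muscle genes, which mark the cells around the cords, 0 were called by limma and 1 had an unadjusted p under 0.05, a level that 20.9% of all genes reached, with Acta2 at 0.37 (limma adjusted p = 0.0823).

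Sertoli cell genes, unlike the steroid genes, were called only in part. Of the 22 measured genes of Sertoli cells and testis, 6 rose and 1, Gstm6, fell in XY DKO, with a median of 0.29. Over all autosomal genes, 3.44% rose and 1.61% fell. In XY control 19 of the 22 rose, with a median of 2.40, beside 18.0% of all autosomal genes. Beside Dhh, the members that rose in XY DKO were Cyp26b1, Hsd17b3, Ptgds, Cst9 and Aard. Cyp26b1, which degrades retinoic acid and so holds male germ cells back from meiosis, had signals of 340.2, 232.3 and 305.0 in XY DKO, against 67.5, 106.9, 101.3 and 166.0 in XX DKO, a difference of 1.33 ± 0.22 (limma adjusted p = 0.000231). Hsd17b3, the last enzyme of testosterone synthesis, had signals of 1492.0, 1153.2 and 1681.6 in XY DKO and of 618.8, 919.4, 688.4 and 534.4 in XX DKO, a difference of 1.06 ± 0.27 (limma adjusted p = 0.0186). The Hsd17b3 call was lost with a pseudocount of 1 and without XY DKO replicate 2, XY DKO replicate 4 or XX DKO replicate 4. Both genes separated the groups, yet Hsd17b3 of XX DKO was far above the 15.4 ± 8.3 of XX control (SD, n = 4), and its interaction with control, -5.39, was the largest among the called genes that the text names (limma adjusted p = 6.41e-12).

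The remaining Sertoli cell genes gave smaller or no calls. Ptgds, a prostaglandin D synthase, rose by 0.88 ± 0.24, Cst9 by 0.54 ± 0.15 and Aard by 0.46 ± 0.14 (limma adjusted p = 0.0283, 0.0342 and 0.0481). Each of the 3 lost its call when single arrays were left out, among them XY DKO replicate 4. Amh, the hormone that removes the female duct, had signals of 26.2, 10.4 and 12.4 in XY DKO and of 9.3, 10.2, 54.4 and 13.0 in XX DKO, against 214.8 ± 13.1 in XY control (SD, n = 4). Sox8, a relative of Sox9, had 149.0, 129.1 and 180.0 in XY DKO and 97.6, 108.8, 110.6 and 92.7 in XX DKO, against 648.9 ± 98.5 in XY control. Its difference in DKO was 0.50 ± 0.19 (limma adjusted p = 0.119). Fgf9, Tesc, Dmrt1 and Sox9 itself differed by -0.28, 0.26, 0.34 and 0.15 and were not called, with limma adjusted p of 0.429, 0.385, 0.579 and 0.88.

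Gstm6, a mu-class glutathione transferase, went against the other testis genes. Its signals were 215.6, 204.6 and 263.6 in XY DKO and 397.2, 310.7, 409.0 and 400.6 in XX DKO, and the groups did not overlap. It fell by 0.70 in XY DKO (SE 0.12, limma adjusted p = 0.000341) but was higher by 0.41 in XY control, and the interaction was -1.11 (limma adjusted p = 7.21e-06). Group means were 227.9 ± 31.4 in XY DKO and 379.4 ± 46.0 in XX DKO, against 2001.6 ± 93.9 in XY control and 1497.1 ± 43.1 in XX control.

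Secreted factors of the activin and BMP family showed both directions. Inhba, a subunit of activin and inhibin, had signals of 1720.9, 1805.6 and 1694.8 in XY DKO, against 708.1, 978.9, 688.2 and 648.8 in XX DKO, and rose by 1.20 ± 0.16 (limma adjusted p = 9.36e-06). Its other probe set was dim, and averaging both gave 0.39 and no call. Inha, the inhibin subunit, had signals of 1895.7, 1945.1 and 2095.4 in XY DKO and of 1465.2, 1433.4, 1106.6 and 1135.2 in XX DKO, and rose by 0.63 ± 0.13 (limma adjusted p = 0.00353). Both genes kept their groups apart. Bmp2, an ovarian ligand in the fetus, fell by 0.54 (SE 0.15, limma adjusted p = 0.035), and Fstl3, an activin antagonist, by 0.80 (SE 0.23, limma adjusted p = 0.0395). The Bmp2 call was lost under 10 of 18 alternatives and the Fstl3 call under 8 of 18, both including the replicate number as a block and the loss of several single arrays. Of 17 measured genes of the list 3 rose, Sostdc1, Inhba and Inha, and 2 fell, with a median of 0.08, beside 3.44% and 1.61% of all autosomal genes.

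Ovarian genes were lower in XY DKO, but only for part of the list and by less than in control. Of 19 pregranulosa and ovary genes measured, 5 fell and 1 rose in XY DKO, with a median of -0.31, beside 1.61% and 3.44% of all autosomal genes. In XY control 16 fell and 2 rose, with a median of -2.22, beside 19.4% and 18.0% of all. The member that rose in XY DKO, Npy, was higher in XY than in XX control as well, so it did not follow the name of its list. Irx3, a homeobox gene of ovarian somatic cells, had signals of 401.8, 218.4 and 283.4 in XY DKO, against 703.9, 633.9, 799.0 and 731.5 in XX DKO, a difference of -1.24 ± 0.18 (limma adjusted p = 4.12e-05). Msx1, a homeobox gene that promotes meiosis, had signals of 159.2, 136.6 and 125.2 in XY DKO and of 333.8, 288.9, 432.3 and 392.6 in XX DKO, a difference of -1.26 ± 0.17 (limma adjusted p = 1.96e-05). Every XY DKO array was below every XX DKO array for both genes, and both were called under all 18 alternatives run.

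Kitl, the ligand of the KIT receptor on germ cells, had signals of 1382.9, 1188.2 and 1457.3 in XY DKO, against 2424.6, 1796.9, 2373.4 and 2629.7 in XX DKO, a difference of -0.76 ± 0.12 (limma adjusted p = 0.000138). Its 3 other probe sets also gave lower values, from -0.71 to -0.27. Foxl2, the transcription factor that keeps granulosa cell identity, had signals of 590.0, 588.3 and 448.4 in XY DKO and of 774.1, 1040.7, 742.4 and 726.6 in XX DKO, a difference of -0.58 ± 0.17 (limma adjusted p = 0.0366). The arrays did not overlap, though the call failed under 8 of 18 alternatives, including the loss of any single XY DKO array. Foxl2 averaged 542.2 ± 81.3 in XY DKO and 821.0 ± 147.8 in XX DKO, against 50.9 ± 9.33 in XY control and 1610.0 ± 88.8 in XX control (SD, n = 3 in XY DKO and 4 elsewhere). The interaction for Foxl2, 4.03, was the largest positive one among the genes that the text names and that were called in DKO (limma adjusted p = 5.16e-14).

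Other ovarian genes that differ widely between control ovary and testis did not pass the test between XY and XX DKO. Fst, encoding the activin antagonist follistatin, had signals of 318.9, 270.1 and 330.9 in XY DKO, against 249.7, 208.3, 202.8 and 288.9 in XX DKO (0.36 ± 0.14, limma adjusted p = 0.117), while controls averaged 66.4 ± 8.39 in XY and 3141.7 ± 323.4 in XX. Calb1, a calcium-binding protein, had 29.2, 35.7 and 53.5 in XY DKO and 34.9, 27.0, 34.3 and 56.9 in XX DKO, against 828.2 ± 257.0 in XX control. The DKO groups overlapped for both genes. Runx1, a transcription factor of pregranulosa cells, had 722.5, 719.3 and 850.7 in XY DKO and 1093.8, 1028.3, 1015.8 and 1151.5 in XX DKO, with no overlap and a difference of -0.48 ± 0.16 (limma adjusted p = 0.0708). Wnt4 and Rspo1, the WNT ligand and the WNT activator of the ovary, differed by -0.14 and -0.10 (limma adjusted p = 0.543 and 0.647).

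Targets of WNT signalling through beta-catenin, whose gene both groups delete by genotype, mostly did not pass the test. Of 12 measured, 2 fell and 0 rose, with a median of -0.17, beside 1.61% and 3.44% of all autosomal genes. Rnf43, a membrane ligase that limits WNT receptors, had signals of 44.4, 23.1 and 61.9 in XY DKO, against 93.6, 85.6, 111.6 and 90.4 in XX DKO, a difference of -0.96 ± 0.25 (limma adjusted p = 0.0177), not called without XY DKO replicate 3 or XX DKO replicate 3. Nkd2, an inhibitor of the pathway, fell by 0.53 (SE 0.15, limma adjusted p = 0.0342), and 2 other probe sets gave -0.16 and -0.15. Its call held under 9 of 18 alternatives. With only the 7 DKO arrays fitted, or without XY DKO replicate 3, 0 genes of the list were called. Axin2, the most used readout of the pathway, had 757.6, 742.0 and 675.8 in XY DKO and 868.4, 779.6, 899.9 and 854.3 in XX DKO (-0.23 ± 0.13, limma adjusted p = 0.328).

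Meiosis genes all had a lower mean in XY DKO, but only a few passed the test. Of 20 measured, Meioc, Rec8, Stra8 and Msx2 were called lower and 0 higher, with a median of -0.83, beside 1.61% and 3.44% of all autosomal genes. An unadjusted p under 0.05 was reached by 11 of the 20, and by 20.9% of all genes. In XY control all 20 were called lower, with a median of -2.49, beside 19.4% of all genes. Meioc, which holds germ cells in the meiotic programme, had signals of 532.4, 816.4 and 296.3 in XY DKO, against 1221.7, 2391.7, 1336.5 and 855.7 in XX DKO, a difference of -1.39 ± 0.33 (limma adjusted p = 0.00969). Rec8, a cohesin of meiotic chromosomes, had signals of 724.5, 948.5 and 517.2 in XY DKO and of 1198.3, 1118.8, 1291.2 and 1123.3 in XX DKO, a difference of -0.72 ± 0.17 (limma adjusted p = 0.00956). These groups did not overlap, whereas they did for Stra8, which opens meiosis in response to retinoic acid. Stra8 had signals of 1729.1, 2612.8 and 530.1 in XY DKO, against 2680.9, 5026.0, 3278.5 and 1996.9 in XX DKO, a difference of -1.18 ± 0.35 (limma adjusted p = 0.0413). Msx2, a homeobox gene upstream of meiosis, fell by 1.38 (SE 0.40, limma adjusted p = 0.0413) at signals of 10.5 to 46.6 in XY DKO and 31.8 to 134.4 in XX DKO.

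The meiosis calls depended on single arrays. The mean log2 level of the 20 genes was 8.91, 9.28 and 8.15 in XY DKO replicates 2, 3 and 4, and 9.37, 10.38, 9.65 and 9.14 in XX DKO replicates 1 to 4, so the groups overlapped. Without XY DKO replicate 4, 0 meiosis genes were called by limma and the list median was -0.51, and with only the 7 DKO arrays fitted 0 were called as well. Without XX DKO replicate 1, 2 or 3, 2 were called in each case. Meioc lost its call without XX DKO replicate 2, Stra8 without XX DKO replicate 1, 2 or 3, and Msx2 without XY DKO replicate 2 or XX DKO replicate 1, 3 or 4. Over 17 pan-germ cell genes the means were 9.85, 10.16 and 9.15 in XY DKO, lowest again in replicate 4, and 9.71, 9.75, 10.13 and 9.80 in XX DKO. Of these 17, limma called 0 (0 under each of 18 alternatives) and 3 had an unadjusted p under 0.05, a level that 20.9% of all genes reached. The list median was 0.01. Ddx4, a helicase found in all germ cells, had signals of 2363.5, 3120.7 and 1646.4 in XY DKO and of 2129.8, 2196.9, 2560.9 and 2117.0 in XX DKO (0.03 ± 0.19, limma adjusted p = 0.941). The part of germ cell number in the meiosis result was not tested.

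Of the markers of male germ cells, 1 passed the test, Tdgf1, at signals below the array medians in XX DKO and in XY DKO replicates 3 and 4. Tdgf1, the Nodal co-receptor, had signals of 173.9, 102.4 and 105.6 in XY DKO, against 23.7, 26.2, 42.4 and 25.9 in XX DKO, and rose by 1.64 ± 0.39 (limma adjusted p = 0.00969). That call was lost without XY DKO replicate 2 and with a pseudocount of 1, which left 0 of the list called. Lefty2, a Nodal antagonist, had 2582.3, 2796.6 and 1554.3 in XY DKO and 2606.7, 1940.8, 2299.6 and 1959.0 in XX DKO, and the groups overlapped (0.04 ± 0.17, limma adjusted p = 0.931). It averaged 2311.1 ± 664.1 in XY DKO and 2201.5 ± 316.5 in XX DKO, against 1647.4 ± 203.3 in XY control and 74.6 ± 11.3 in XX control (SD, n = 3 in XY DKO and 4 elsewhere). Its relative Lefty1 differed by 0.84 ± 0.35 (limma adjusted p = 0.152) and Nodal by 0.71 (limma adjusted p = 0.11). Of the 10 genes of the list, 1 was called, with a median of 0.18, beside 3.44% of all autosomal genes called higher.

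**Figure D2:**
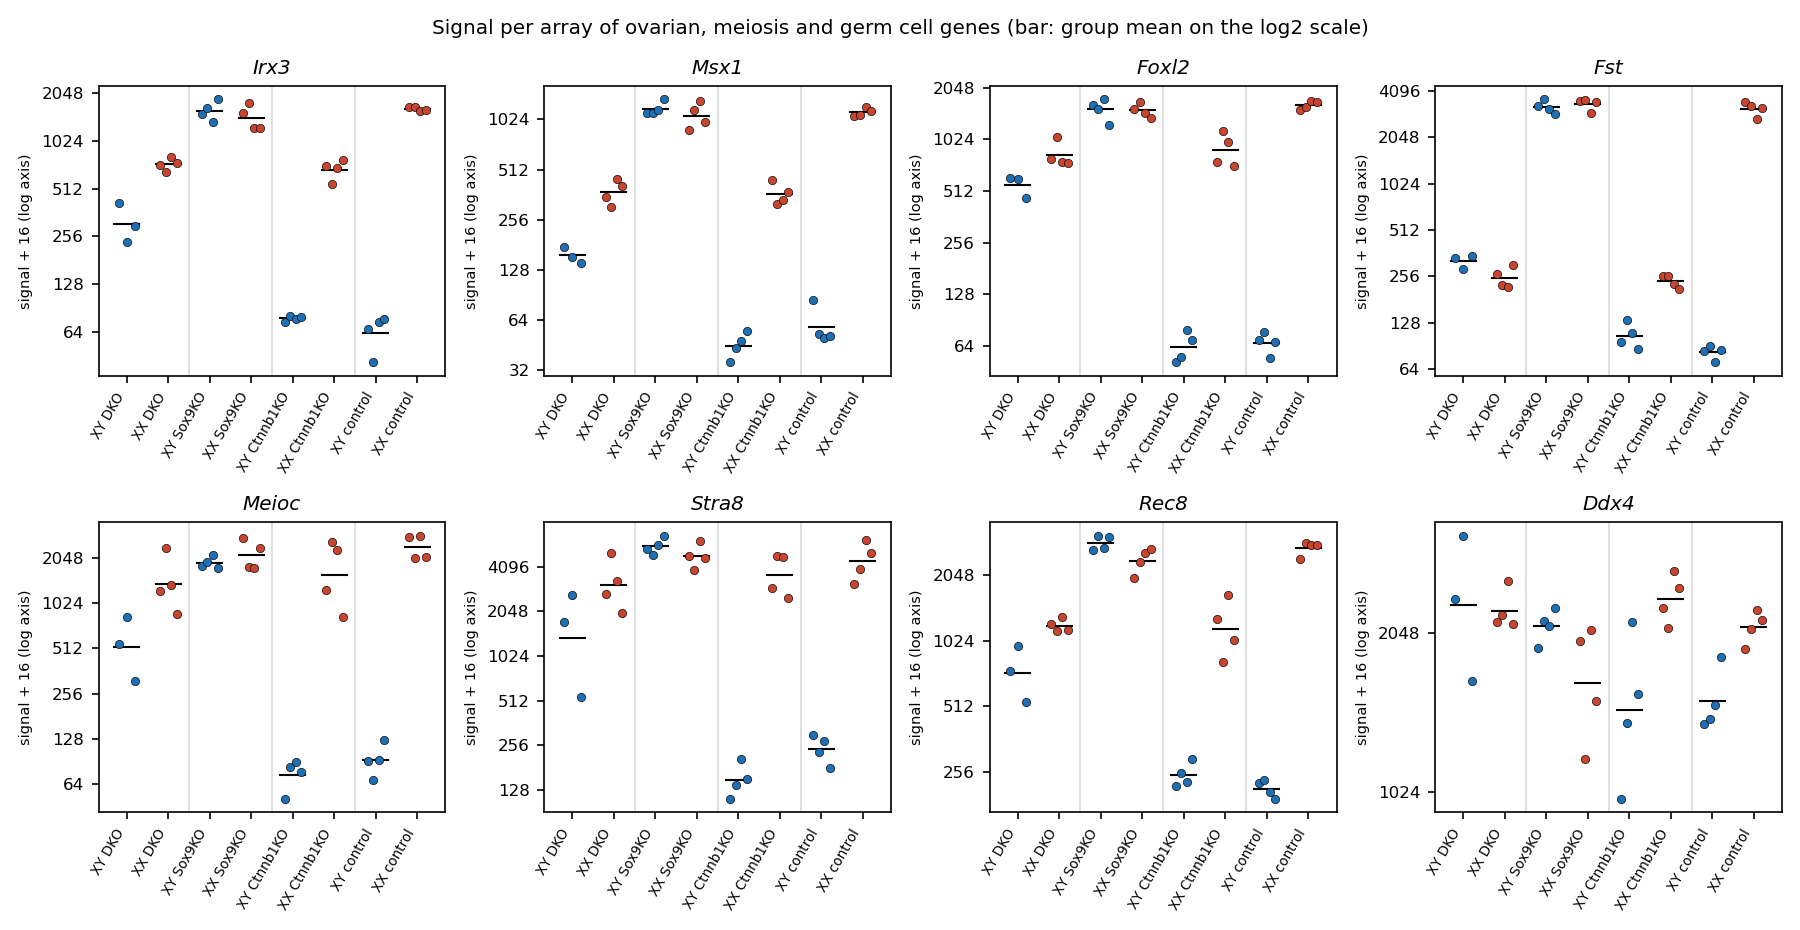
Signal + 16 on a log axis for 8 ovarian, meiosis and germ cell genes in each array, XY in blue and XX in red, by genotype, with bars at group means on the log2 scale. XY DKO lies below XX DKO for Irx3, Msx1 and Foxl2, while Fst and Ddx4 overlap between XY and XX DKO. Among the DKO arrays, 1 XY DKO array is lowest for Meioc, Stra8 and Rec8.

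The other large falls came from genes of varied function. Edaradd, an adaptor of the ectodysplasin receptor, had signals of 74.9, 79.0 and 79.1 in XY DKO, against 165.4, 145.2, 241.0 and 255.8 in XX DKO, a difference of -1.18 ± 0.20 (limma adjusted p = 0.000254). H1f6, a germ cell linker histone, had signals of 109.0, 141.7 and 115.6 in XY DKO and of 284.2, 463.5, 271.2 and 206.2 in XX DKO, a difference of -1.17 ± 0.22 (limma adjusted p = 0.00098). For both, the difference was near that in control, -1.26 and -1.04, with interactions of 0.08 and -0.13 (limma adjusted p = 0.878 and 0.82). Trank1 differed by -1.22 ± 0.22, Slc25a42, a mitochondrial carrier of coenzyme A, by -1.18 ± 0.26, the lens crystallin gene Crygb by -1.09 ± 0.25 (calls lost without XY DKO replicate 3 and 4, in that order) and Kcnip1, which binds potassium channels, by -1.07 ± 0.21. The least stable were Pramel1 at -1.45 ± 0.43, Tnfrsf13c, the receptor of a B cell survival factor, at -1.38 ± 0.39, and Syn2, a synaptic vesicle protein, at -1.16 ± 0.34, which were called under 6 of 18, 11 of 18 and 8 of 17 alternatives.

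Markers of blood cells, vessels and cell division gave 1 call between them, where 5.05% of all autosomal genes were called. limma called 0 of 15 macrophage and leukocyte genes, 0 of 9 erythroid genes and 0 of 13 proliferation genes, with medians of 0.02, -0.04 and 0.06 (0 of each list under all 18 alternatives). At an unadjusted p under 0.05 there were 1, 0 and 2, a level that 20.9% of all genes reached. Of 18 endothelial genes Efnb2, an arterial ligand, was called at 0.30 ± 0.09, but its 3 other probe sets ran from -0.37 to 0.43. Krt18, an epithelial keratin in the list of mesonephric duct and tubule genes, fell by 0.56 (SE 0.13, limma adjusted p = 0.0078), a call lost without XY DKO replicate 4, and Cdh1, Lhx1 and Pax8 of that list differed by 1.24, 0.82 and -0.30 and were not called (limma adjusted p = 0.0606, 0.125 and 0.566). Mean log2 levels of those 4 genes were 8.18 to 8.47 in XY DKO and 7.78 to 8.26 in XX DKO. Of 17 matrix genes Fn1, encoding fibronectin, rose by 0.38 ± 0.07, of 13 genes of FGF signalling the receptor gene Fgfr1 by 0.37 ± 0.10, with another probe set at -0.36, and of 14 factors of the early gonad only Nr5a1. Beside a share of 5.05% of all genes, 1 call in lists of 13 to 18 genes is no result about the list.

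Retinoic acid, prostaglandin and stress genes gave 2 calls in each list, where 3.44% of all autosomal genes were called higher. Beside Cyp26b1, Aldh1a1, which makes retinoic acid, rose by 0.45 ± 0.08, 2 of 11 genes of its list. Ptgr1, a reductase that inactivates prostaglandins, rose by 0.56 ± 0.09 (limma adjusted p = 9.27e-05), and with Ptgds it made 2 of 5 prostaglandin genes. Of 9 genes of the immediate early and heat shock response, the heat shock protein genes Hspa1b and Hspa1a rose by 1.37 ± 0.21 and 0.97 ± 0.23, the second not called without XY DKO replicate 4. These near-identical copies may share reads of their probe sets, and both were higher in XY control too, by 2.55 and 1.83. Over the list of 9, mean log2 levels were 9.93 to 9.99 in XY DKO and 9.59 to 9.76 in XX DKO, and their part in other results was not tested. Fos, Jun and Egr1 differed by 0.02, 0.07 and 0.15 (limma adjusted p = 0.969, 0.819 and 0.55).

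**Figure D3:**
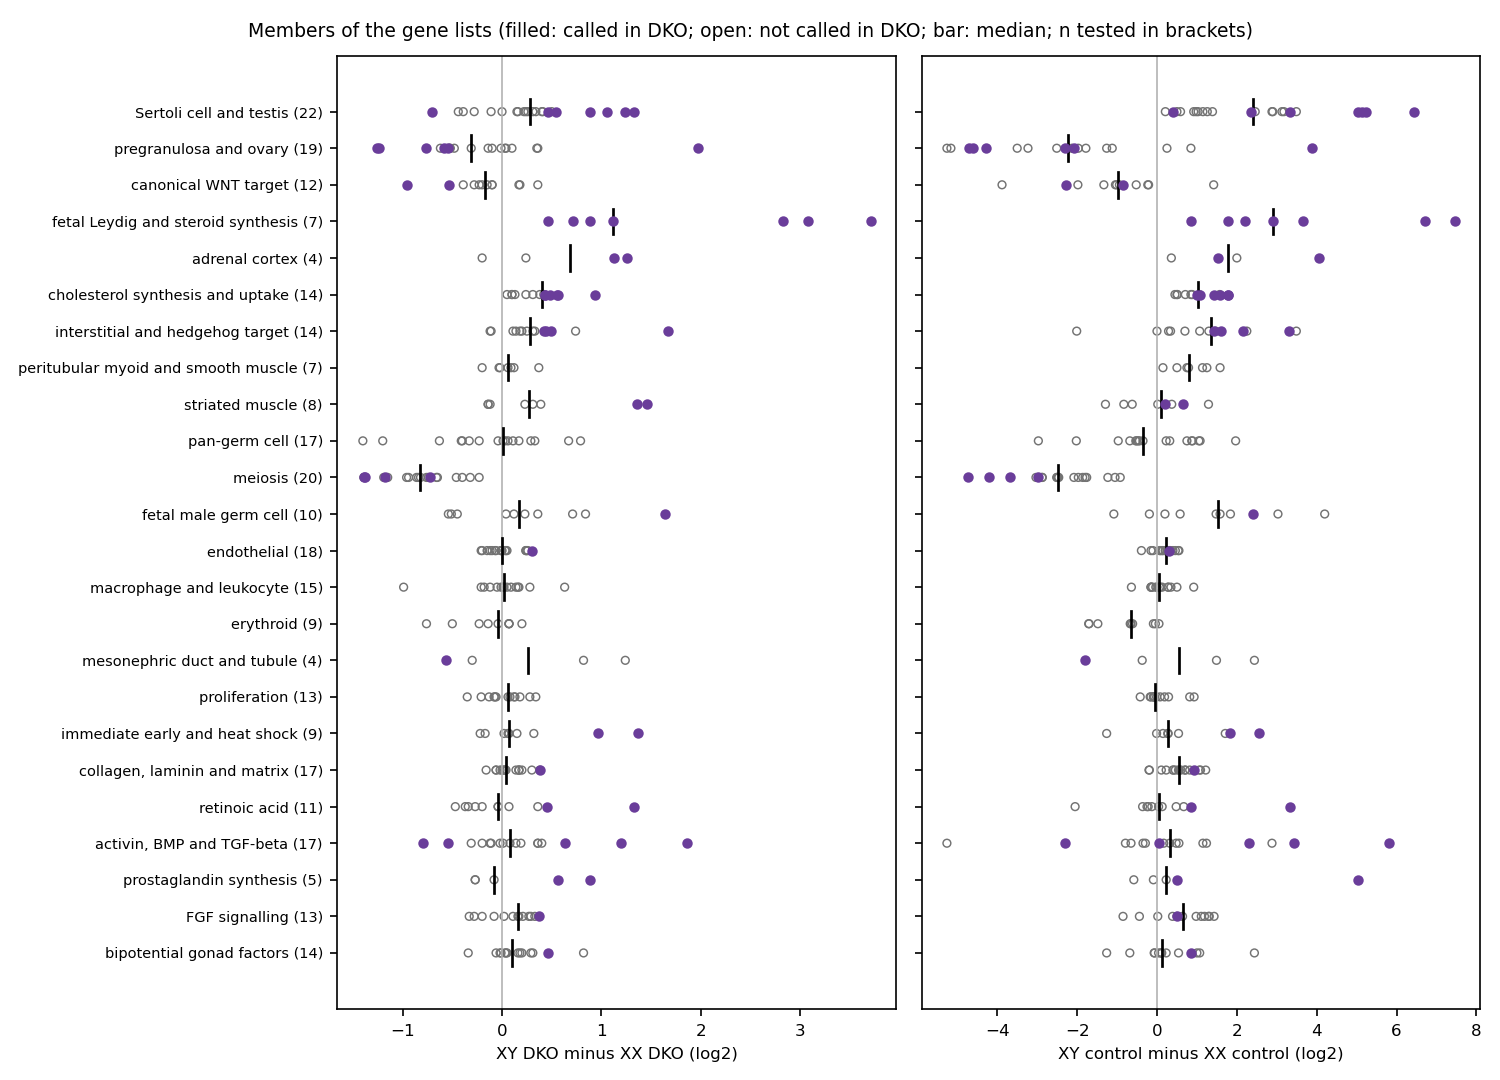
XY minus XX difference (log2) of each measured member of 24 gene lists in DKO (left) and in control (right), with filled points for genes called in DKO and bars at list medians, on axes of different range. The 7 Leydig and steroid genes are all filled and to the right of 0 in DKO, and Sertoli cell, ovary and meiosis genes spread further in control than in DKO.

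Across genotypes, most genes called in DKO were called in the same direction in control. limma called 4241 autosomal genes between XY and XX control (37.5%), 3649 between XY and XX Ctnnb1KO (32.3%) and 6 between XY and XX Sox9KO (0.053%), the last with 1533 at an unadjusted p under 0.05 (13.5%). The Sox9KO count ran from 0 to 55 when single Sox9KO arrays were left out. These comparisons share no arrays with the DKO comparison. Of the 389 genes higher in XY DKO, 302 were also higher in XY control, which is 77.6% of the DKO genes and 14.8% of the 2041 control genes (18.0% of those tested). Of the 182 lower genes, 122 were also lower in XY control, or 67.0% of the DKO genes and 5.55% of the 2200 control genes (19.4% of those tested). With Ctnnb1KO the shared genes were 295 of 389 (75.8%) and 123 of 182 (67.6%), and with Sox9KO 0 of both.

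Differences of size were tested by the interaction of sex and genotype. Against control, limma called the interaction for 1687 autosomal genes (14.9%), against Ctnnb1KO for 926 (8.18%) and against Sox9KO for 107 (0.946%), 83 of these (0.734% of those tested) with the more positive difference in DKO. Among the 389 genes higher in XY DKO, the interaction with control was called for 190, with the smaller difference in DKO for 161 and the larger for 29. Among the 182 lower genes it was called for 50, with the smaller difference in DKO for 40 and the larger for 10. Against Sox9KO, the interaction was called for 78 of the 389 and 18 of the 182, and the DKO difference was the larger one each time. All these genes were chosen by a call on the same DKO arrays, so their DKO difference is large by choice. With few differences in Sox9KO, the direction against Sox9KO follows from that choice and is no separate result.

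Over genes chosen by their control difference, DKO kept a small share of it. For 502 genes called and at least 2-fold higher in XY control (4.44% of those tested), the DKO difference had a median of 27.9% of the control difference (quartiles 12.6% and 39.4%), and 449 had the same sign. For 484 genes at least 2-fold lower in XY control (4.28%) the median was 24.9% (quartiles 7.86% and 40.0%), with 412 of the same sign. The same medians were 2.25% and 2.20% in Sox9KO and 73.7% and 70.7% in Ctnnb1KO. These genes were chosen on the control arrays, so their control difference is large by choice.

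**Figure D4:**
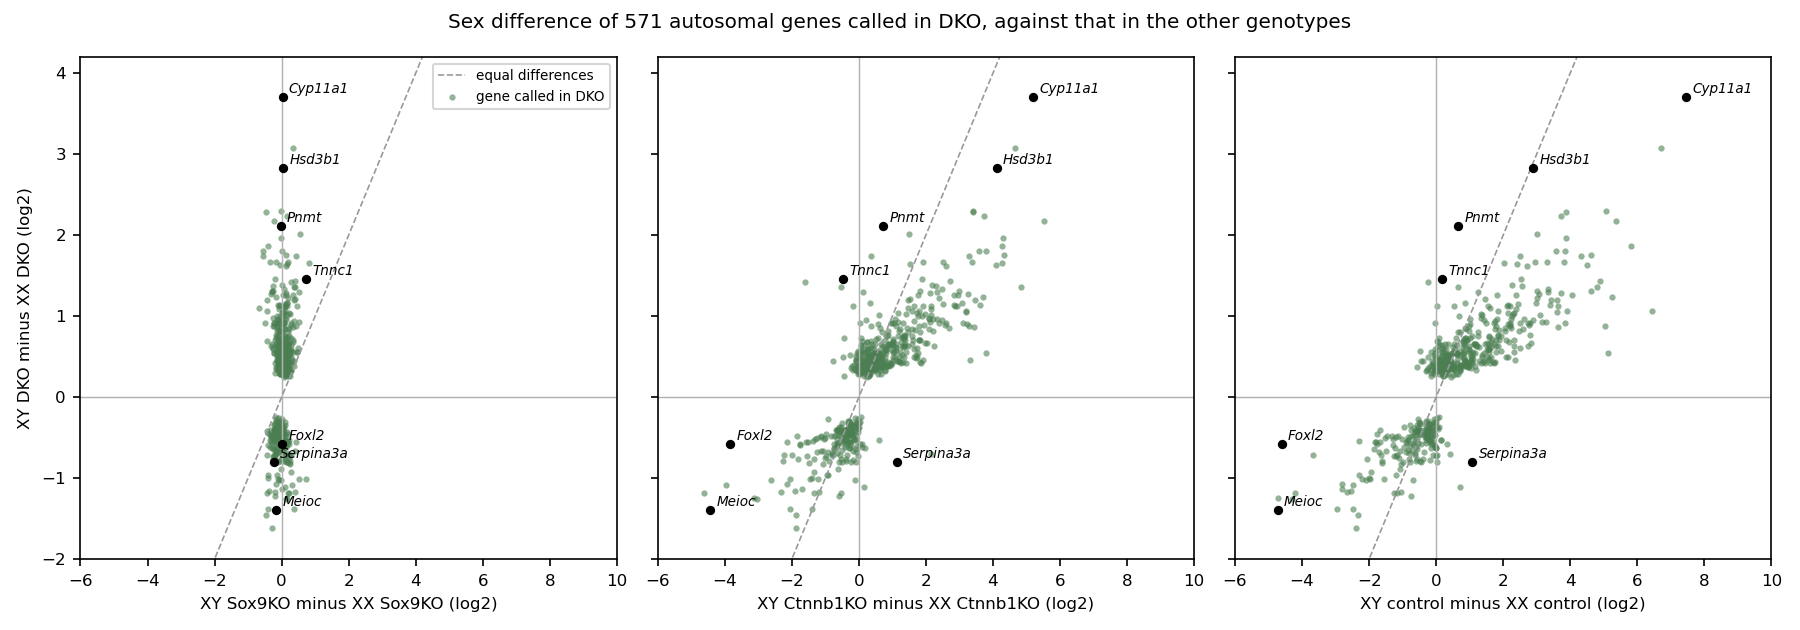
XY minus XX difference (log2) in DKO for the 571 called autosomal genes, against that in Sox9KO, Ctnnb1KO and control, with a dashed line at equal differences. Points lie close to 0 on the Sox9KO axis, and most have the same sign in DKO and control, with Cyp11a1 further from 0 in control, Hsd3b1 near the line, and Pnmt and Tnnc1 above it.

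Of the 93 genes called at 2-fold or more between XY and XX DKO, 5 were not called in control. Over all autosomal genes, 37.5% were called in control. The interaction with control was called for 3 of the 5, Tnnc1, Tgm3 and Car12, and for 14.9% of all autosomal genes. These genes were chosen by their call on the DKO arrays. Tnnc1, encoding a troponin of slow and cardiac muscle, had signals of 1412.1, 1920.4 and 1409.0 in XY DKO, against 929.9, 813.7, 435.4 and 290.7 in XX DKO, a difference of 1.46 ± 0.30 (limma adjusted p = 0.00315). Tnnt2, encoding cardiac troponin T, had signals of 864.8, 990.2 and 656.6 in XY DKO and of 522.7, 276.4, 289.1 and 226.2 in XX DKO, a difference of 1.36 ± 0.29 (limma adjusted p = 0.00406). XX DKO arrays spread widely, yet none reached the XY DKO arrays. Control levels were lower in both sexes, at 237.7 ± 44.4 in XY and 208.3 ± 49.5 in XX for Tnnc1 and 161.8 ± 17.1 in XY and 101.5 ± 39.5 in XX for Tnnt2 (SD, n = 4). The interaction with control was 1.27 for Tnnc1 (limma adjusted p = 0.0311) and 0.70 for Tnnt2 (limma adjusted p = 0.252). The other 6 of 8 striated muscle genes measured, among them Myl1 at -0.14 and Tnni1 at -0.14, were not called (limma adjusted p from 0.111 to 0.831), with a list median of 0.27. Over all autosomal genes, 3.44% were called higher.

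The other 3 genes called in DKO at 2-fold or more and not in control were Tgm3, Car12 and Pla2g1b. Between XY and XX Ctnnb1KO the differences were 2.93 for Pla2g1b, larger than in DKO, -1.60 for Tgm3 and -0.16 for Car12. For Tnnc1 and Tnnt2 they were -0.48 and -0.54. Between XY and XX Sox9KO the differences were 0.72 for Tnnc1, 0.39 for Tnnt2, 0.28 for Tgm3, 0.09 for Car12 and -0.07 for Pla2g1b. None of these Sox9KO differences was called. Tgm3, a transglutaminase of epithelia, had signals of 246.7, 262.1 and 509.7 in XY DKO and of 144.6, 76.7, 93.4 and 139.2 in XX DKO, a difference of 1.42 ± 0.38 with an interaction of 1.66 (limma adjusted p = 0.026 and 0.0292). Its call in DKO was lost without XY DKO replicate 4, XX DKO replicate 2 or XX DKO replicate 3. Car12, a carbonic anhydrase, had signals of 356.3, 361.5 and 410.6 in XY DKO and of 231.7, 187.3, 138.5 and 120.8 in XX DKO, a difference of 1.12 ± 0.22 with an interaction of 1.08 (limma adjusted p = 0.00263 and 0.0141). Both averaged less in controls of either sex, with Car12 at 67.5 ± 6.44 in XY control and 68.8 ± 24.2 in XX control. Pla2g1b, a secreted phospholipase, rose by 1.12 ± 0.26 in DKO and differed by 0.53 in control, and its interaction of 0.60 was not called (limma adjusted p = 0.281), nor was its DKO difference without XY DKO replicate 2.

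Direction was opposite to control for only 10 called genes, 7 of the 389 higher (1.8%) and 3 of the 182 lower (1.65%) in XY DKO. Over all autosomal genes, 19.4% were called lower and 18.0% higher in XY control. These 10 were chosen by their call on the DKO arrays. Serpina3a, of a family of protease inhibitors with near-identical members, had signals of 156.0, 113.3 and 118.2 in XY DKO, against 225.1, 181.5, 296.0 and 252.8 in XX DKO, a difference of -0.80 ± 0.19, against 1.08 in control. Cachd1 had signals of 1601.9, 2106.2 and 1936.9 in XY DKO and of 1269.9, 1077.1, 1263.9 and 1448.7 in XX DKO, a difference of 0.57 ± 0.13, against -0.47 in control. Both groups stayed apart in DKO, and the interactions were -1.88 and 1.03 (limma adjusted p = 2.47e-06 and 0.000109), but the DKO calls of both were lost without XY DKO replicate 3. Serpinb6b, Zfp521 and Slc23a2, a vitamin C transporter, rose by 0.44, 0.44 and 0.37 in XY DKO and were lower by -0.46, -0.38 and -0.58 in XY control, and each lost its call in DKO without any single XY DKO array. Another Slc23a2 probe set gave -0.08 in DKO.

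Called genes lay on all 19 autosomes, from 3.39% of tested genes on chromosome 4 to 8.32% on chromosome 1. For the promoters of tested genes given by RefSeq (GRCm38.p6), the 250 bases before the start were searched on both strands for AAGGTCA, a motif bound by the factor that Nr5a1 encodes. A promoter was given for 288 of the 389 genes called higher, 162 of the 182 called lower and 9164 of all 11314 tested. The motif was found for 9 of these 288 (3.12%) and 7 of these 162 (4.32%), against 305 of the 9164 (3.33%). The spelling AAGGCCA, which the factor also binds, was found for 11 of 288 (3.82%) and 10 of 162 (6.17%), against 515 of 9164 (5.62%). Promoters of 3 of the 7 Leydig and steroid genes were given, Cyp11a1, Hsd3b1 and Fdx1, and 0 of these 3 held either spelling in that window.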

How the data were processed

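RNA of 31 pairs of gonads, 40 ng each and amplified, per the labels' protocols, was hybridised to 1-colour arrays of 45101 probe sets. The authors deposited linear signal intensity values made with MAS5, per the submitters' processing notes. The sources used here give neither its settings nor its version. The trimmed mean was 500.0 on every array. The number of arrays limits the precision, and 1 pair of gonads per array was the replicate.

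From these intensities log2(signal + 16) was computed, with 64 control probe sets left out. Of 45101 probe sets, 34945 had 1 gene symbol, 932 several and 9160 none, and 34741 were matched to RefSeq. For each of 18193 genes the probe set of highest average signal was kept, and 11777 genes were above their array's median on at least 3 arrays. One model with 8 group means over 31 arrays was fitted in limma 3.58.1 (R 4.3.3) with eBayes and a trend. P-values were adjusted by the Benjamini-Hochberg method over the 11777 genes, and 11314 autosomal genes were reported. The 406 genes on sex chromosomes and 57 with no chromosome were left out. Residual degrees of freedom were 23.

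The genes named were the 12 largest rises and 12 largest falls among called genes whose arrays did not overlap and whose mean lay above the median of all probe sets in the higher group, the 4 members of a list with the smallest adjusted p, and the 6 largest interactions, opposite directions and calls absent in control. Other members were named to show which did not pass. The groups compared, the gene lists and the named gene rule were chosen with earlier results of these data known. The second promoter motif was chosen after the first had been counted.

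Other settings tried were pseudocounts of 1 and 64, quantile normalization, no filter, the mean of all probe sets, no trend, array weights, adjustment over autosomal genes, only the arrays compared, the replicate number as a block, each array left out, and the XX Ctnnb1KO array without Xist left out. The fit was tested on simulated data for 11777 genes: it recovered 56.7% of 67 genes changed 1.5-fold, 95.5% of 67 changed 2-fold and 100% of 66 changed 4-fold. Of its 173 calls, 5 were false. The simulated noise was normal, with the same spread for a gene in every group, as the model assumes. It therefore does not test what unequal spread between groups would do.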

Additional observations from a re-analysis of the deposited data

Results flagged for a closer look

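The XY minus XX difference was tested between genotypes for the genes described above, and limma called the following differences, given as that in DKO minus that in control (log2). They were negative, meaning less of an XY excess in DKO, for the steroid and cholesterol genes Cyp11a1 at -3.76, Cyp17a1 at -3.61, Cyp11b1 at -2.80, Star at -2.54, Lss at -1.33, Scarb1 at -1.31, Dhcr7 at -1.10, Fdx1 at -1.08, Cyp51 at -0.89, Msmo1 at -0.83, Sqle at -0.55 and Fdft1 at -0.51. Among Sertoli cell genes they were -5.39 for Hsd17b3, -4.59 for Cst9, -4.16 for Ptgds, -4.00 for Dhh, -2.97 for Sox9, -2.01 for Cyp26b1, -1.89 for Aard and -1.11 for Gstm6. Of these, Sox9 was not called between XY and XX DKO.

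Among the other genes with a testis excess in control, the values were -3.93 for Sostdc1, -3.18 for Ccl17, -2.76 for Gsta2, -2.21 for Inhba, -2.03 for Ephx1, -1.91 for Npy, -1.68 for Inha, -1.67 for Heyl, -1.64 for Gli1, -1.60 for Hao2, -1.50 for Oxtr, -1.19 for Ptch1, -1.19 for Hspa1b, -0.97 for Pdgfra, -0.54 for Fn1 and -0.40 for Aldh1a1. Serpina3a, which turned its direction, stood at -1.88.

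The values were positive for ovarian and meiosis genes, with 4.03 for Foxl2, 3.46 for Irx3, 3.34 for Meioc, 3.03 for Msx1, 3.02 for Stra8, 2.94 for Rec8, 1.77 for Bmp2, 1.60 for Msx2, 1.33 for Rnf43 and 1.31 for Kitl. Other genes lower in XY control had 1.75 for Kcnip1, 1.38 for Syn2, 1.37 for Crygb and 1.25 for Krt18. A larger or turned difference in DKO gave 1.66 for Tgm3, 1.45 for Pnmt, 1.27 for Tnnc1, 1.08 for Car12, 1.03 for Cachd1, 0.95 for Slc23a2, 0.90 for Serpinb6b and 0.82 for Zfp521.

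For the Leydig and steroid genes the differences from Ctnnb1KO and Sox9KO were tested as well. Against Ctnnb1KO, DKO was smaller by -1.77 for Star, -1.67 for Scarb1, -1.58 for Cyp17a1, -1.49 for Cyp11a1, -1.29 for Hsd3b1, -1.07 for Fdx1 and -0.57 for Nr5a1. Against Sox9KO, DKO was larger by 3.68 for Cyp11a1, 2.78 for Hsd3b1, 2.74 for Cyp17a1, 1.02 for Star, 0.72 for Fdx1 and 0.62 for Scarb1.

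Single arrays stood apart from the other XX DKO arrays for 7 genes, and chance puts about 1 in 20 groups past the limit used. Whether 7 is more than chance gives was not tested. The highest XX DKO signal stood apart for Syn2 at 601.0, Slc25a42 at 410.7 and Tdgf1 at 42.4. The lowest stood apart for Dhcr7 at 1301.3, Zfp521 at 413.7, Gstm6 at 310.7 and Msx2 at 31.8.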

How the results depend on the processing

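The 571 calls between XY and XX DKO became 1094 with array weights (659 higher, 435 lower) and 158 with only the arrays compared (125 higher, 33 lower), of which 153 were among the 571. Leaving out 1 array gave 326 to 604 calls, 241 to 394 higher and 85 to 210 lower. The lowest came without XX DKO replicate 3 (326), XY DKO replicate 4 (345) and XX DKO replicate 2 (359), and lower calls were 112 without XY DKO replicate 2. The mean of all probe sets gave 417 calls, 320 of them shared. With the replicate number as a block there were 585 calls, 519 of them shared. Deviations of same-numbered XY and XX DKO arrays correlated at 0.001, 0.051 and 0.363, so the numbers were not taken to pair the arrays.

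The 6 calls in Sox9KO became 15 with quantile normalization, 1 with the replicate block, 13 with the mean of all probe sets, 51 with array weights, 0 when adjusted over autosomal genes and 0 with only the arrays compared, and 0 to 55 when 1 array was left out. Interactions against Ctnnb1KO numbered 1712 with array weights. Those against Sox9KO numbered 195 with array weights, 50 with only the arrays compared and 59 to 162 when 1 array was left out. The causes were not tested.

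Of 1416 values of 79 named genes under the alternatives, 205 lost their call and 6 changed sign, and 45 genes lost their call at least once, 37 of them with only the arrays compared. The 6 sign changes were in Sox9 (main value 0.15), at -0.02, -0.02, -0.07 and -0.01 within a range of -0.07 to 0.50 when 1 array was left out, and in Ctnnb1 (main value -0.08), at 0.05 with quantile normalization and 0.0 without XY DKO replicate 4, within a range of -0.14 to 0.0 when 1 array was left out. The dim signals of Sox9 and of Amh, Msx2, Mc2r, Cyp11b1, Tdgf1 and Rnf43 limit what can be read from them. On simulated data the fit missed many 1.5-fold changes, and 3 XY DKO arrays carry each comparison.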
